A study of Mus musculus with 27 samples.

Results

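The clustered protocadherins are cell surface cadherins encoded by 3 gene clusters that lie next to each other on mouse chromosome 18. They were taken from the deposited table of CPM values (the reads of a feature, scaled to the total of its library) by their gene symbols, as the entries named Pcdha, Pcdhb or Pcdhg with an isoform number. The symbols gave 58 members among the 38168 entries of the table, from 60 matching entries, since Pcdhga10 and Pcdhga12 are each listed more than once and were represented by their most abundant entry. By class they were 12 alternate alpha isoforms, 22 beta genes, 12 gamma A isoforms, 7 gamma B isoforms and 5 C-type isoforms (Pcdhac1, Pcdhac2, Pcdhgc3, Pcdhgc4 and Pcdhgc5). A combined entry named for both Pcdhga10 and Pcdhga12 is not a member.

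The study followed RNA of the whole retina through development. Wild type C57BL/6J mice were sampled at embryonic days 14 and 17 (E14 and E17) with 3 libraries each, at postnatal day 1 (P1) with 4, at P6 with 3, at P15 and P28 with 4 each and at P60 with 6, for 27 libraries at 7 ages. No group carried an allele or received an agent, and no age is a control, so each age was set against the one before and the 14 mature libraries (P15, P28 and P60) against the 6 embryonic ones (E14 and E17). Retinas were pooled within a library, from several embryos or mice, except at P60. There 4 of the 6 libraries held the retinas of single mice and the others were pools of 3 mice. The sources used here do not say which libraries these were. Embryonic and P1 libraries mixed the sexes and later ones came from males, so sex and age cannot be told apart across that boundary. The totals to which the CPM values were scaled, recovered from the values, were 7077781 to 11332323 reads per library (median 7969873). The paper states a higher number of reads collected per library. On these totals 1 read was worth 0.0882 to 0.141 CPM and a count of 0 allowed up to 3 reads, or 0.265 to 0.424 CPM, for counting error only.

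The alpha and gamma clusters have an unusual structure. Each isoform begins with its own large variable exon, which encodes the extracellular and transmembrane parts of the protein, and is spliced to 3 small constant exons that all isoforms of the cluster share and that encode the common cytoplasmic end. Beta genes have a single exon and no constant part. A neuron uses a small set of the alternate isoforms, chosen at their promoters with the insulator protein CTCF and with cohesin, and the proteins pair in cis and bind the same combination on another membrane. In the retina the gamma cluster is known for self-avoidance of starburst amacrine cell dendrites and for the survival of interneurons.

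On the GRCm38 assembly (mm10, the build named in the submitters' processing notes) the alpha members span chromosome 18, 36930285 to 37188897, the beta members 37264998 to 37521419 and the gamma members 37661775 to 37841873, all on the plus strand. The constant exons have 2860 bases in alpha and 2119 in gamma transcripts. Own exons are 2346 to 3028 bases long in alpha, 2499 to 2961 in gamma and 2588 to 8695 in beta. Of the 50-base stretches of an own exon, the length of a read, a median of 14.8% in alpha, 3.48% in beta and 0.73% in gamma also occur in another gene, with the highest shares in Pcdha6 (26.6%), Pcdhgb2 (17.9%) and Pcdhb12 (12.0%), so reads of these isoforms may be split or lost among near-identical copies.

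The table counted reads of the constant exons for every isoform of the cluster. Of the reads of the highest alpha member of a library, 73.3 to 83.5% were matched by the lowest alpha member, and in gamma the lowest entry held 61.4 to 71.8% of the highest. Across the libraries the alpha isoforms followed one another with a median Pearson r of 0.994, and the gamma isoforms with 0.965, whereas the beta genes, which share no exon, had 0.837 and as little as 0.019. Pcdha2 and Pcdha8 differed by 0 to 33 reads in a library (median 7), although 2 independent counts of their size would differ with an SD of 21.3 to 35.0 reads, and their difference was under that SD in 26 of 27 libraries. The gamma isoforms Pcdhgc5 and Pcdhga2 differed by 7 to 100 reads (median 43). That was under the SD of independent counts (37.5 to 50.6 reads) in only 11 of 27 libraries. The level of an alpha or gamma member as deposited is therefore chiefly the level of its whole cluster. For gamma this rests on the share held by the lowest entry and on the correlations. To separate the isoforms, the reads of the lowest entry of the cluster in each library were subtracted from those of each member, which gave its own reads. For gamma, 3 fusion entries that join an alpha exon to the gamma constant exons (Gm37013, Gm38666 and Gm38667) served as entries too. This step was chosen after the data were seen, and a member at 0 own reads was the lowest of its cluster and may still be expressed.

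**Figure D1:**
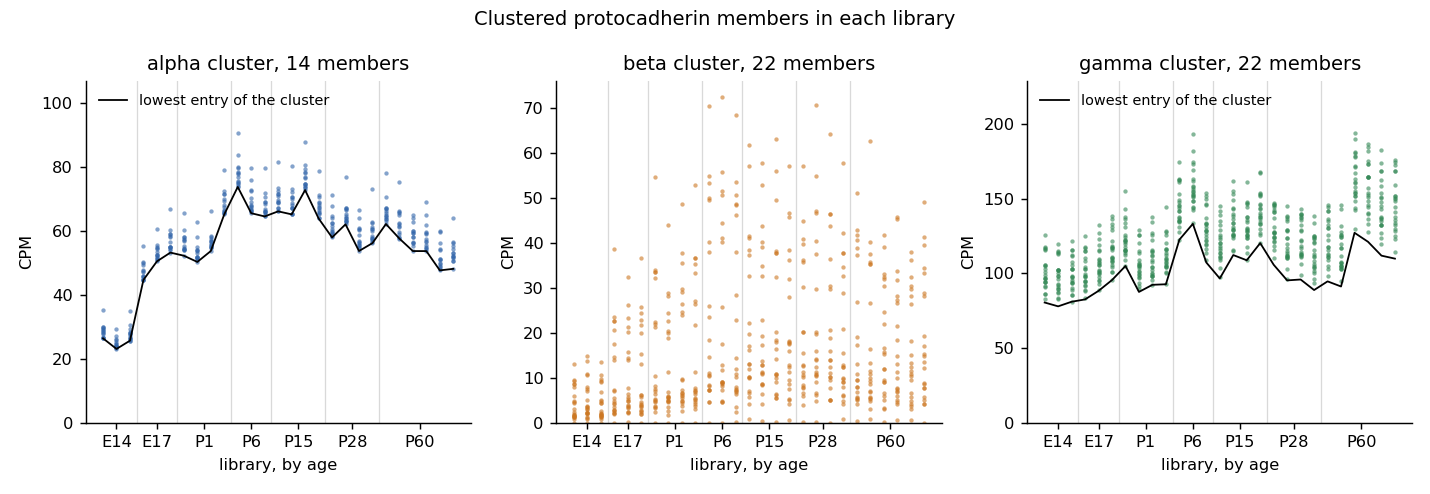
Values in CPM (vertical axes, linear) of the 14 alpha, 22 beta and 22 gamma members in each of the 27 libraries, ordered by age along the horizontal axes. Each point is 1 member in 1 library, and the black lines mark the lowest entry of the alpha and gamma clusters. Alpha and gamma members lie in a narrow band above that line in all libraries, while beta genes spread from near 0 to 72.4 CPM.

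As deposited, all members that could be tested were higher in the mature retina, which for the alpha and gamma isoforms chiefly describes the reads that each cluster shares. Own reads gave fewer calls and are reported after the beta genes. Of the 58, 57 passed the filter of at least 1 CPM in at least 3 libraries. With limma on log2(CPM + 1), all 57 were higher in the mature than in the embryonic retina at an adjusted p under 0.05 and none were lower, while 35.0% of all 31760 features tested were higher and 40.4% were lower. Their log2 fold changes ran from 0.24 to 2.35 with a median of 0.72, against a median of -0.06 over all features. On this scale the change of low genes is understated. A change of at least 1 on the log2 scale was reached by 17 members, all of them beta genes, and by 14.9% of all features in the upward direction. In 24 members every mature library lay above every embryonic library, as it did for 17.4% of all features: 16 beta genes, 4 gamma A isoforms, 3 gamma B isoforms and 1 C-type isoform. No alternate alpha isoform had separate groups, since E17 replicate 3 lay above the lowest mature library in all 12.

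As deposited, every member tested was lowest at E14. The mean was highest at P6 for 35 of them, at P15 for 11, at P28 for 3 and at P60 for 8. On own reads the ages differed: the mean was highest at P60 for 6 of 14 alpha and 20 of 22 gamma isoforms, and lowest at E14 for 9 of the alpha but 1 of the gamma isoforms, of which 14 were lowest at P1 and 5 at E17. The P60 libraries were split in the gamma own reads, as given below. All 57 deposited values varied over the 7 ages (limma F test, adjusted p under 0.05), as did 83.0% of all features. In whole tissue, more cells that express a gene and more RNA per cell cannot be told apart.

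The beta genes rose most. Their summed level was 95.5 to 108.7 CPM at E14, 224.0 to 229.0 at E17, 275.3 to 347.8 at P1. It ranged from 497.8 to 518.5 CPM in the P6 libraries, from 448.6 to 477.5 in those of P15, from 413.7 to 493.4 in those of P28 and from 351.4 to 407.8 in those of P60 (median 385.4). The ages up to P6 did not overlap, and all 14 mature libraries lay above all 6 embryonic ones. The mean over mature ages was 2.66 times the mean over embryonic ages, compared with 1.59 for the alternate alpha, 1.29 for the gamma A, 1.24 for the gamma B and 1.36 for the C-type isoforms, sums that count the shared reads once per isoform.

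Pcdhb14, Pcdhb13 and Pcdhb12, which are neighbours, had the largest rises. Pcdhb14 (Gene ID 93885, chromosome 18, 37447657 to 37451094) had 4.90, 4.96 and 5.05 CPM at E14, 14.7, 14.4 and 13.1 at E17, 21.2, 20.4, 26.5 and 26.5 at P1 and 55.0, 44.3 and 48.7 at P6. It then had 57.2, 52.9, 56.0 and 45.8 CPM at P15, 39.8, 54.9, 46.4 and 42.1 at P28, and 27.3 to 42.9 at P60 (median 39.6). Its libraries separated every age up to P6 and overlapped from there on. The log2 fold change from embryonic to mature was 2.26 ± 0.09 (SE, limma adjusted p 1.3e-20), with rises at E17 (1.33), P1 (0.70) and P6 (1.03).

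Pcdhb13 (Gene ID 93884, 37442517 to 37446209) was near the lower end of detection at E14, with 1.20, 0.738 and 1.26 CPM. It had 2.86, 2.38 and 1.86 CPM at E17, 3.56, 4.79, 3.73 and 5.21 at P1, 10.6, 8.65 and 7.997 at P6, 13.1, 10.8, 14.2 and 15.9 at P15, between 12.4 and 12.5 at P28 and between 9.57 and 14.9 at P60 (median 10.8). Its groups did not overlap between any of the first 5 ages, and its log2 fold change of 2.35 ± 0.11 (limma adjusted p 1.33e-18) was the largest of the members. Pcdhb12 (Gene ID 93883, 37435621 to 37438654) had 1.24 ± 0.28 CPM at E14 and 13.1 ± 1.4 at P6 (SD, n = 3 each) and reached 16.2 ± 1.8 at P15 (SD, n = 4). Its log2 fold change was 2.27 ± 0.13 (limma adjusted p 6.42e-17). Its exon overlaps an antisense gene, Gm37446, beside the sequence it shares with other genes.

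Pcdhb19 and Pcdhb17 are the other beta genes with the highest mean CPM. Pcdhb19 (Gene ID 93890) had 13.1, 14.8 and 13.6 CPM at E14 and 38.5, 32.3 and 36.6 at E17, and was highest at P6 with 70.4, 72.4 and 68.4. It fell from P28 (57.0, 70.6, 64.1 and 57.8 CPM) to P60 (36.1 to 62.7, median 47.4) by 0.39 ± 0.10 on the log2 scale (limma adjusted p 0.0163). The P28 and P60 libraries overlapped, and without P28 replicate 2 the adjusted p of that step was 0.0714. Pcdhb17 went from 11.1 ± 2.6 CPM (SD, n = 3) at E14 to 53.0 ± 2.9 (SD, n = 3) at P6 and 34.5 ± 4.5 (SD, n = 6) at P60. From embryonic to mature retina the log2 fold change of Pcdhb19 was 1.29 ± 0.08 and that of Pcdhb17 was 1.24 ± 0.08 (limma adjusted p 9.31e-16 and 6.94e-15).

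**Figure D2:**
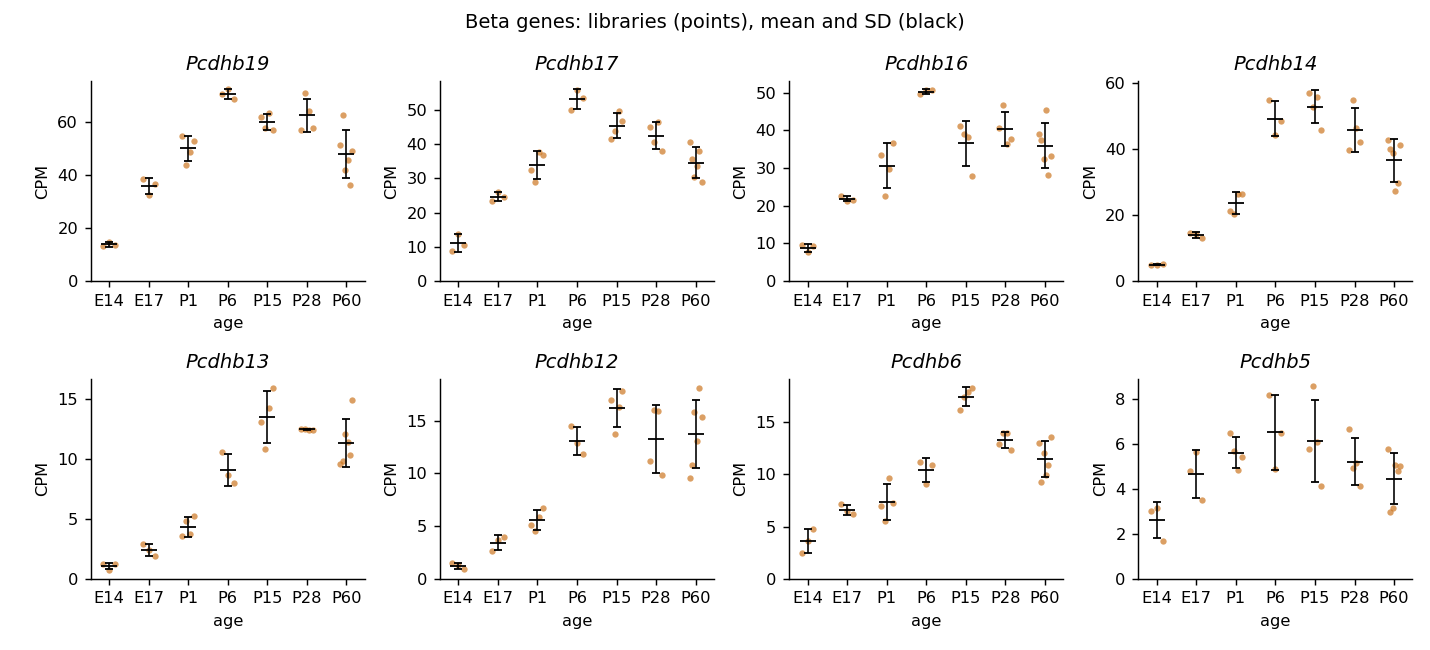
CPM (vertical axes, linear, from 0) of 8 beta genes at the 7 ages, with 1 point per library and the mean and SD in black. Pcdhb19, Pcdhb17 and Pcdhb16 were highest at P6, Pcdhb14, Pcdhb13, Pcdhb12 and Pcdhb6 at P15, and Pcdhb5, which had the smallest rise of the beta genes, had means of 4.46 to 6.51 CPM from P1 on.

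The least change among the tested beta genes was that of Pcdhb5, from 2.62 ± 0.81 CPM (SD, n = 3) at E14 to 4.46 ± 1.14 (SD, n = 6) at P60. Its libraries overlapped, and the log2 difference was 0.46 ± 0.15 (limma adjusted p 0.00575). Pcdhb1 was the member that did not pass the filter. It had 1 read in 1 of the 6 embryonic libraries and 44 reads in 12 of the 14 mature ones, with at most 6 reads in a library, and no fold is given. Pcdhb1 stands first in the cluster.

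Beta genes differed in level and in timing along the cluster. For levels per kilobase, the length of a beta gene was that of its longest single-exon transcript in the GENCODE basic set. On that scale the mature level ran from 1.46 CPM in Pcdhb3 to 10.7 in Pcdhb20 among the tested genes. Pcdhb16 to Pcdhb20 were the 5 highest. These lengths exceed the RefSeq span of some genes, among them Pcdhb14 (8695 bases) and Pcdhb19 (7138). The ranking and the correlation with level per kilobase rest on this choice, and other lengths were not tried. Across the 21 genes, order along the chromosome went with the mature level per kilobase (Spearman's rho 0.868, Pearson r 0.851 with the log2 level), with the change at E17 (rho 0.788, r 0.803) and, in the other direction, with the change at P15 (rho -0.669, r -0.654). These are descriptions across genes measured in the same libraries. The mean level of a gene went with its change at E17 to a like degree (rho 0.868), so position, level and the lower sensitivity of the log2(CPM + 1) scale at low levels cannot be told apart here.

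Stretches of 7 neighbouring genes, drawn after the values were seen, show the order of events. In Pcdhb16 to Pcdhb22 all 7 genes rose at E17, by 1.05 to 1.31 on the log2 scale, 6 rose again at P1 and 6 at P6, and 3 fell at P15 (Pcdhb16, Pcdhb20 and Pcdhb21, by 0.39 to 0.47). In Pcdhb9 to Pcdhb15, 6 rose at E17, 4 at P1, all 7 at P6 (0.66 to 1.11), and 2 (Pcdhb10 and Pcdhb13) still rose at P15. In Pcdhb2 to Pcdhb8, 3 rose at E17, none at P1, 3 at P6 and 1 (Pcdhb6, by 0.70) at P15. The share of Pcdhb9 to Pcdhb15 in the beta sum went from 15.9% ± 1.3 (SD, n = 3) at E14 to 29.3% ± 0.5 (SD, n = 4) at P15, and that of Pcdhb16 to Pcdhb22 from 66.4% ± 0.5 to 57.4% ± 0.8, with no overlap between these ages in either.

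**Figure D3:**
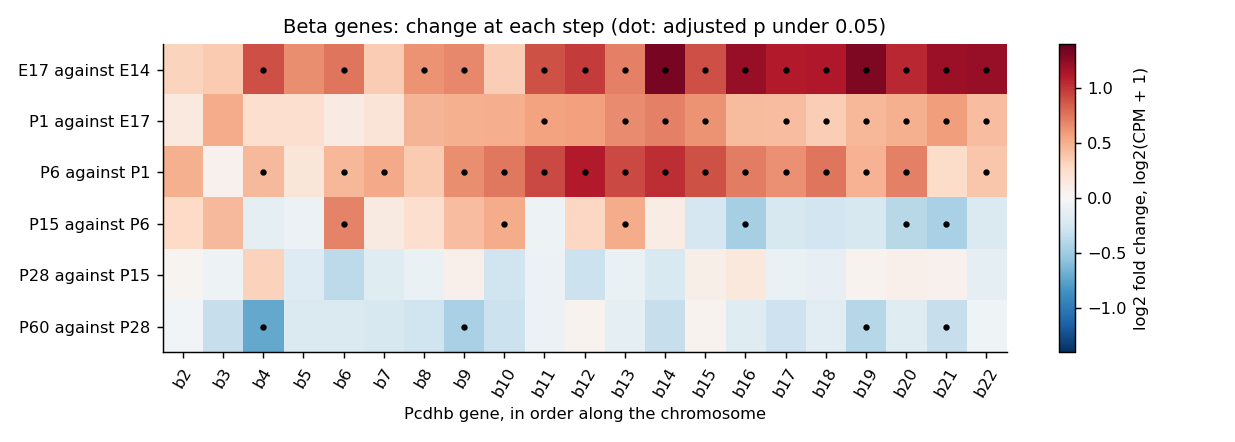
Log2 fold change on the log2(CPM + 1) scale (colour) of the 21 tested beta genes, in order along the chromosome from left to right, at each of the 6 steps between ages from top to bottom. A dot marks an adjusted p under 0.05. All 7 genes from Pcdhb16 to Pcdhb22 have a dot at E17 and 3 of them a blue field with a dot at P15, whereas the dots of the genes to the left lie mainly at E17 and P6.

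Step by step, the members were called mainly at E17 and at P6. At E17 against E14, 30 of 57 were higher and none lower (all features: 7.56% higher, 3.02% lower): the 12 alternate alpha isoforms, 16 beta genes, Pcdhac1 and Pcdhac2, and no gamma isoform. The alpha calls repeat the shared reads of 1 cluster, and on own reads 1 of the 12 alternate alpha isoforms (Pcdha9) and no C-type or gamma isoform was called at E17 (all features: 7.51% higher). At P1 against E17, 10 members were higher, all beta genes, and none lower (all features: 5.77% and 3.43%), with 5 to 6 called without E17 replicate 1, 2 or 3 or P1 replicate 3. At P6 against P1, 52 were higher and none lower (18.0% and 20.4%): all alpha and gamma isoforms and 16 beta genes. On own reads it was none of the 12 alternate alpha, 5 of 12 gamma A, 2 of 7 gamma B and 1 of 5 C-type isoforms (17.9% of all features). Without P6 replicate 1 the deposited count was 31, with fewer calls in every class. None of the 12 alternate alpha isoforms was then called, and 13 beta genes, 10 gamma A, 6 gamma B and 2 C-type isoforms were. Of the 12 alternate alpha isoforms, only 2 were called without P1 replicate 2 and 5 without P1 replicate 1. Without P6 replicate 2, 6 of the 12 gamma A and 4 of the 7 gamma B isoforms were called.

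After P6 few members changed between neighbouring ages. At P15 against P6, Pcdhb6, Pcdhb10 and Pcdhb13 were higher and Pcdhb16, Pcdhb20 and Pcdhb21 lower (all features: 14.4% and 19.0%), with 3 called without P6 replicate 2 or P15 replicate 4. At P28 against P15, limma called no member (1.14% and 1.58% of all features), 14 members had an unadjusted p under 0.05, all of them lower, and edgeR on the recovered reads also called none. At P60 against P28, Pcdhga10, Pcdhgb6 and Pcdhgb7 were higher and Pcdhb4, Pcdhb9, Pcdhb19 and Pcdhb21 lower (4.8% and 8.11%). That count of 7 rested on single libraries: it was 3, 1, 2 and 2 without P28 replicates 1 to 4 in turn, and 21, 27, 3, 2, 3 and 4 without P60 replicates 1 to 6. The P60 libraries fell apart in the gamma cluster: Pcdhgb6 had 144.8 and 124.2 CPM in replicates 1 and 2 and 193.9, 184.9, 168.9 and 172.6 in replicates 3 to 6. Whether this goes with pooled and single mice was not tested.

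The deposited alpha values moved as a block, set by the shared reads. The shared level, the lowest entry, was 23.1 to 26.4 CPM in E14 libraries, 44.7 to 53.2 in E17 and 50.3 to 65.2 in P1 libraries. It was 64.5 to 73.8 CPM in P6, 63.9 to 72.8 in P15, 53.7 to 62.1 in P28 and 47.7 to 62.2 in P60 libraries. It thus increased 1.97-fold between E14 and E17, without overlap, and its P60 mean was 0.792 times that at P6. The own reads of the alpha isoforms went the other way after P6, from a sum of 56.4 ± 4.7 CPM (SD, n = 3) to 67.9 ± 6.5 at P60 (SD, n = 6), a ratio of 1.21, with overlapping libraries. As deposited, the log2 fold changes of the 12 alternate alpha isoforms from embryonic to mature retina lay between 0.70 and 0.77, and those at E17 between 0.85 and 0.98. The 3 with the highest mean, Pcdha11, Pcdha1 and Pcdha7, had 0.70 ± 0.06, 0.74 ± 0.06 and 0.75 ± 0.06 (SE, limma adjusted p 1.55e-11, 1.7e-12 and 1.17e-12).

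The gamma cluster was higher from the start and moved later. Its shared level was 78.0 to 81.0 CPM in E14 libraries, 82.6 to 95.6 in E17 and 87.6 to 105.0 in P1 libraries. It was 107.3 to 133.2 CPM in P6, 96.6 to 120.3 in P15, 88.9 to 105.8 in P28 and 91.2 to 127.2 in P60 libraries. The P6 libraries lay above all earlier ones, and those at P28 and P60 overlapped with P1. From P6 to P60 the shared level had a ratio of 0.903, while the own reads of the gamma isoforms summed to 514.6 ± 23.9 CPM at P6 (SD, n = 3) and 717.6 ± 108.0 at P60 (SD, n = 6), a ratio of 1.395. All 6 P60 libraries lay above the highest P6 library (538.8 CPM) in that sum, but they were split. Replicates 1 and 2 had 617.8 and 547.5 CPM, near the P28 libraries (550.1 to 612.2), and replicates 3 to 6 had 757.5 to 799.5. As deposited, the gamma A isoforms had log2 fold changes of 0.27 to 0.57 and the gamma B isoforms of 0.24 to 0.36. Of those with the highest mean CPM, Pcdhga12 (0.30 ± 0.06), Pcdhga3 (0.35 ± 0.06), Pcdhga10 (0.40 ± 0.07), Pcdhgb7 (0.34 ± 0.06), Pcdhgb5 (0.24 ± 0.05) and Pcdhgb6 (0.31 ± 0.07) were all called, with limma adjusted p of 8.03e-05 or less. Other entries of these genes differed. The second Pcdhga12 entry had a mature mean 0.979 times its embryonic mean. The ratio was 1.07 for the combined entry of Pcdhga10 and Pcdhga12 and 1.56 for the second Pcdhga10 entry.

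Own reads set a few isoforms apart from their cluster. In the limma fit with own reads in place of the deposited values, 25 of the 36 alpha and gamma members were higher in the mature retina and none lower, beside 35.0% of all features higher in that fit. With edgeR's quasi-likelihood test the count was 29. However, 6 members (Pcdha2, Pcdha3, Pcdha5, Pcdha8, Pcdhac1 and Pcdhgc5) were themselves the lowest entry in some libraries, so that their own reads were 0 there by construction. Of the other 30 members, limma called 23 and edgeR 28. The 23 were 7 of 8 alternate alpha, 9 of 12 gamma A, 4 of 7 gamma B and 3 of 3 C-type isoforms. The own log2 fold changes of the 30 ran from -0.02 to 2.14 with a median of 0.46.

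Pcdhga1, the first gene of the gamma cluster (Gene ID 93709, chromosome 18, 37661775 to 37841870), had the largest difference between own and deposited values. Its own exon overlaps an antisense gene, Gm37118. It had 56, 82 and 42 own reads at E14, 64, 49 and 54 at E17, 31, 49, 51 and 61 at P1, 60, 101 and 68 at P6, 176, 126, 164 and 128 at P15, 267, 239, 304 and 214 at P28, and 182 to 391 at P60. In CPM this was 6.22 at E14, 9.59 at P6, 19.4 at P15, 34.3 at P28 and 36.4 at P60 (means). The 3 latest ages lay above all earlier ones without overlap, and P28 above P15. The log2 fold change of own reads was 2.14 ± 0.13 (limma adjusted p 5.38e-16), with rises at P6 (0.67), P15 (0.94) and P28 (0.79) on the same scale, whereas that of the deposited values was 0.57. The rise at P28 had an adjusted p of 0.0608 without P15 replicate 2 and 0.0643 without P28 replicate 3. It was the only member called at P28 on own reads (adjusted p 0.013).

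A long noncoding RNA gene on the same strand, 3222401L13Rik (chromosome 18, 37655451 to 37661742), ends 33 bases before the start of Pcdhga1. It had 4.85 ± 0.77 CPM (SD, n = 3) at E14, 4.38 ± 0.52 (SD, n = 3) at E17, 8.76 ± 1.64 (SD, n = 3) at P6, 19.0 ± 4.4 (SD, n = 4) at P15, 35.5 ± 2.6 (SD, n = 4) at P28 and 37.4 ± 4.7 (SD, n = 6) at P60, next to the own level of Pcdhga1 at each age. The part of transcripts that run on from it in the own reads of Pcdhga1 was not tested.

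The C-type isoforms stand at the ends of their clusters and, unlike the alternate isoforms, are used without the same choice of promoters. Pcdhgc4 (Gene ID 93707), which interneurons need for survival, had 102, 92 and 76 own reads at E14, 89, 78 and 81 at E17, 88, 105, 107 and 128 at P1 and 148, 200 and 158 at P6. P15 libraries had 142 to 167, P28 libraries 131 to 159 and P60 libraries 98 to 194. The P6 level in CPM, 20.9, 21.6 and 21.8, lay above all libraries of E14, E17 and P1. The own reads rose at P1 by 0.60 ± 0.15 and at P6 by 0.71 ± 0.15 on the log2 scale (limma adjusted p 0.00681 and 0.000232), and the log2 fold change from embryonic to mature was 1.07 ± 0.10 (adjusted p 9.36e-12), against 0.41 ± 0.06 for the deposited values. Without E17 replicate 2 the P1 step had an adjusted p of 0.0739.

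Pcdhac1 was the lowest alpha entry, or level with it, through most of development. It had 0 to 2 own reads in the 6 embryonic libraries, 0 at P1 and P6 in all libraries except 20 in P1 replicate 4, and 23, 0, 0 and 0 at P15. From P28 on, all 10 libraries had own reads (3, 14, 20 and 11 at P28 and 3 to 48 at P60). Since Pcdhac1 was itself the entry subtracted in 11 libraries and level with it in others, its zeros follow from the subtraction and no fold or test is given. Pcdhac2 had 3.38 ± 0.55 own CPM (SD, n = 3) at E14 and 9.24 ± 1.57 (SD, n = 3) at P6, and 7.55 ± 2.28 (SD, n = 6) at P60. Its own reads had a log2 difference of 0.58 ± 0.14 (limma adjusted p 0.000569).

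Pcdhgc3, whose own exon overlaps an antisense gene (BC037039), had the highest own level per kilobase of the C-type isoforms. It had 14.0 CPM per kilobase in the embryonic and 18.9 in the mature retina, near the highest gamma B isoforms. Its own level was 35.4 ± 0.5 CPM (SD, n = 3) at E14, 52.3 ± 7.9 (SD, n = 3) at P6 and 54.2 ± 12.3 (SD, n = 6) at P60, and its log2 fold change was 0.40 ± 0.10 (limma adjusted p 0.000333). Pcdhgc5, the last gene of the cluster, had 0 to 57 own reads, with 23, 46 and 0 at E14 and 20 to 57 at P60. It was the lowest gamma entry in 6 libraries, and no fold or test is given.

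**Figure D4:**
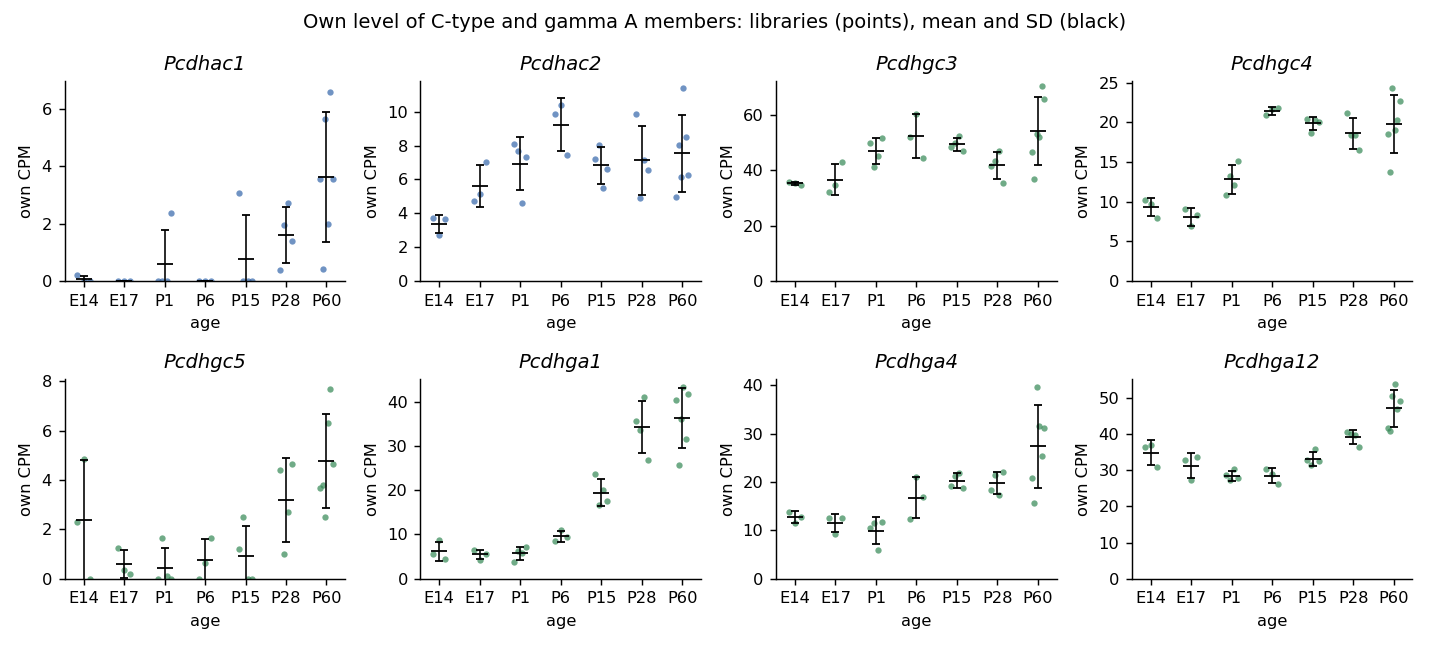
Own level in CPM (vertical axes, linear, from 0) of the 5 C-type isoforms and of Pcdhga1, Pcdhga4 and Pcdhga12 at the 7 ages, with 1 point per library and the mean and SD in black. Pcdhgc4 reaches its upper level at P6 and Pcdhga1 at P28, while Pcdhac1 stays at or near 0 in most libraries before P28.

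Among the alternate isoforms the own levels differed too. Per kilobase, Pcdha11 was the highest alpha isoform, at 3.92 CPM in the embryonic and 5.88 in the mature retina. Its own exon overlaps an antisense gene, Gm10545, and 18.4% of its 50-base stretches also occur in another gene. Gm10545 had means of 10.9 CPM at E14 and 21.1 at P15, beside 8.2 and 15.1 own CPM of Pcdha11. The part of Gm10545 in the own reads of Pcdha11 was not tested. Pcdhgb7 (14.3 and 18.9), Pcdhgb5 (16.3 and 17.4) and Pcdhgb6 (13.3 and 16.9) were high among gamma isoforms throughout. The own exons of Pcdhgb7, Pcdhga10, Pcdhga11 and Pcdhga12 overlap an antisense gene, Gm26672, and that of Pcdhga4 overlaps an exon of Pcdhgb1. Pcdha10 and Pcdhga4, named for their size after their values were seen, had own log2 fold changes of 0.997 ± 0.206 and 0.81 ± 0.14 (limma adjusted p 6.79e-05 and 6.5e-06). Pcdha10 was near the floor of the subtraction. It had 1 to 12 own reads in embryonic libraries, left after 219 to 572 reads were subtracted, and 3 to 41 in mature ones, with overlap. At the other end Pcdhgb8, annotated as a transcribed pseudogene (-0.02 ± 0.11), and Pcdhga11 (0.04 ± 0.12) were not called (adjusted p 0.862 and 0.78). At P60, 7 of the 36 were higher on own reads than at P28 (4.81% of all features). The P60 libraries were split in the sum of gamma own reads, as given above.

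**Figure D5:**
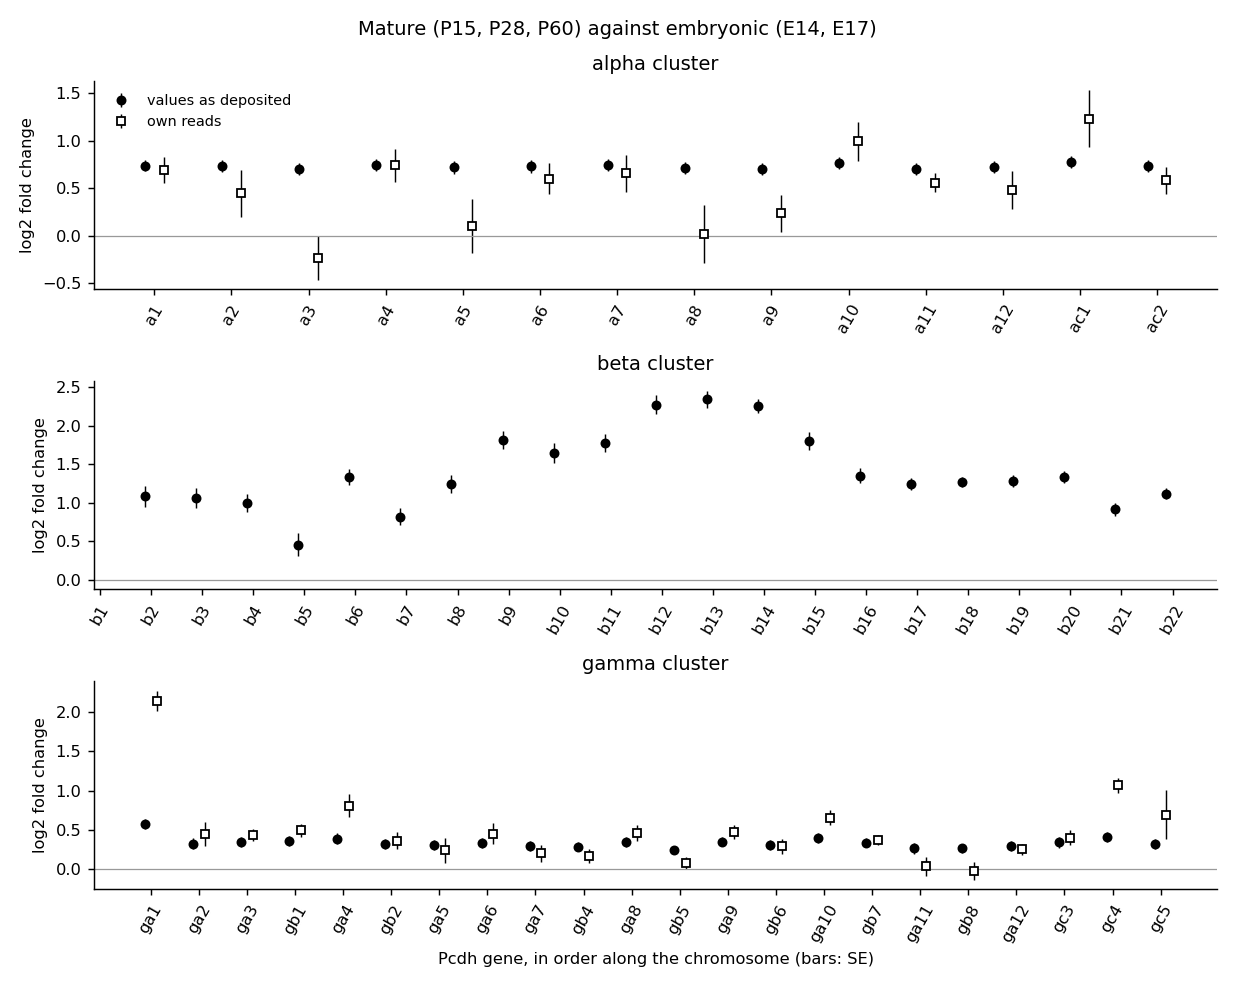
Log2 fold change on the log2(CPM + 1) scale, mature against embryonic, of the members in order along the chromosome, with the SE as bars. Filled circles are the values as deposited and open squares the own reads of alpha and gamma members, and Pcdhb1 was not tested. Circles of the alpha cluster lie between 0.70 and 0.78, while squares run from -0.23 to 1.23, the ends being Pcdha3 and Pcdhac1, which were the subtracted entry in some libraries. Among gamma isoforms the squares of Pcdhga1 and Pcdhgc4 stand highest.

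Other genes of the same biology did not share one direction, and neither did all features tested, of which 35.0% were higher and 40.4% lower. Of 10 delta protocadherins, relatives outside the clusters, 6 were higher in the mature retina and 4 lower. The largest were Pcdh10 (30.7 to 96.2 CPM, log2 fold change 1.75 ± 0.07), Pcdh8 (1.55 ± 0.12) and Pcdh1 (1.42 ± 0.08). Of 15 genes that act on the clusters (CTCF, cohesin, DNA methylation and silencing genes), 3 were higher and 11 lower. The largest were Dnmt3b, which methylates the alternate promoters in the embryo (28.8 to 4.17 CPM, -2.51 ± 0.12), the maintenance methyltransferase Dnmt1 (-1.96 ± 0.05) and the repressor Rest (-1.50 ± 0.06). Ctcf itself was lower by 0.64 ± 0.05 on the log2 scale.

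Of 12 genes for processing and signalling of these proteins, 3 were higher and 7 lower, beside 35.0% and 40.4% of all features. The largest changes were those of the shedding protease Adam10 (172.7 to 53.8 CPM, -1.63 ± 0.05), Wasf1 of the WAVE complex (-0.99 ± 0.09) and its partner Cyfip2 (0.84 ± 0.04). Of 8 other genes of self-avoidance and spacing, 1 was higher and 5 were lower, beside the same shares of all features. The higher one was Dscaml1, a Dscam relative (12.2 to 189.4 CPM, 3.89 ± 0.09). The guidance receptor Robo2 (-1.55 ± 0.05) and its ligand Slit1 (-0.94 ± 0.11) had the largest falls. All of these named genes had limma adjusted p of 4.7e-09 or less.

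The cell makeup of the retina moved over the same ages. The counts of markers stand beside 35.0% of all features higher and 40.4% lower in the mature retina. All 6 rod markers were higher in the mature retina, with a summed level of 13.5 to 23.5 CPM in embryonic and 16520 to 29790 in mature libraries, and all 6 progenitor markers were lower. The 6 amacrine markers summed to 151.8 CPM at E14, 606.5 at E17, 900.4 at P1 and 600.8 at P6 (means), and the 6 ganglion cell markers to 811.5, 744.1, 424.3 and 357.3. Of 6 markers each, 5 amacrine, 5 bipolar and 5 Müller glia markers were higher and 1 lower, 2 ganglion cell markers were higher and 4 lower, and 4 of the retinal pigment epithelium were higher (4.64 to 9.41 CPM summed in embryonic and 12.6 to 65.6 in mature libraries). Of the tested lens and blood markers, 0 and 2 were higher and 1 and 0 lower, and their sums stayed at or under 9.94 and 50.3 CPM in a library. The part of these changes in the levels of the protocadherins was not tested.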

How the data were processed

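Whole-retina total RNA was read as single-end sequences from SMARTer libraries, and the authors aligned the reads to mm10 with STAR, as the submitters' processing notes name them. They deposited 1 table of CPM values. Which annotation was used, whether counting used the strand and how reads in several genes were treated is not given in the sources used here. All CPM values (100.0%, within 0.02 of a read) were whole multiples of 1 read, so reads were recovered from them. Groups came from the labels. Members and lists were chosen with earlier results of these data known. A pseudocount of 1 was added before log2, low features were dropped (under 1 CPM in all but 2 or fewer libraries), and limma 3.58.1 with a trend (R 4.3.3) compared ages in 1 model of the 27 libraries. Tests were two-sided, and Benjamini-Hochberg adjusted p over the 31760 features were called under 0.05. The p-values measure the spread between libraries. edgeR 4.0.16 (quasi-likelihood, TMM) was run on the recovered reads.

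Named genes were the 5 C-type isoforms, the 3 highest by mean CPM of each other class, the 3 largest called rises and falls with separate groups (no member fell), and the 3 largest called changes of each other list, of which markers are given by counts and sums. Pcdhb5, Pcdhb6, Pcdhb1, Pcdha9, Pcdha5, Pcdhga1, Pcdhga4, Pcdha10, Pcdha3, Pcdha2, Pcdha8, Pcdhga11, Pcdhgb8, Ctcf, 3222401L13Rik, the genes given by level per kilobase and those called at single steps were added after their values were seen. Gene positions are from RefSeq (GRCm38.p6) and exon lengths from GENCODE. Summaries used Python 3.11.15 with pandas 2.3.3 and figures matplotlib 3.10.9. On simulated reads with 200 genes changed by 1.5 on the log2 scale among 30538 features, limma recovered 200 for mature against embryonic, with 10 false calls. Alternatives were a pseudocount of 0.1, no filter, a mean of at least 10 CPM, size factors by median of ratios, a replicate block, edgeR, the compared ages only, summed repeated symbols, a minimum log2 fold change of 1 and each library left out. Own reads were added after the data were seen.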

Additional observations from a re-analysis of the deposited data

Results flagged for a closer look

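Of 28 values looked at in 112 groups of 4 to 6 libraries, 6 had 1 library far from the others of its age, where chance gives about 1 in 20 groups. Pcdhac2 had 72.5 CPM in P1 replicate 4 against 58.0 to 60.3 in the others, Pcdha1 had 80.7 CPM in P15 replicate 3 against 71.2 to 72.5, and Pcdhga3 had 131.4 CPM in P1 replicate 1 against 113.6 to 116.2. On own reads, Pcdhac1 had 2.37 CPM in P1 replicate 4 and 3.08 CPM in P15 replicate 1, with the others of each age at 0, where Pcdhac1 was the lowest alpha entry or level with it, and Pcdhgc5 had 1.64 CPM in P1 replicate 2 against 0 to 0.113.

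3 entries at the gamma locus were not taken as members, and no test of them on their own is given. The second Pcdhga10 entry had a mean of 42.3 CPM (26.2 to 77.0 over the libraries). The combined entry of Pcdhga10 and Pcdhga12 had a mean of 29.2 CPM (22.1 to 43.2) and the second Pcdhga12 entry a mean of 16.96 CPM (13.1 to 24.6). Their mature means were 1.56, 1.07 and 0.979 times their embryonic means, in that order.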

How the results depend on the processing

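All 57 members stayed higher in mature than in embryonic retina with each library left out, under a pseudocount of 0.1, median-of-ratios scaling, the compared ages only, summed symbols, the replicate block and edgeR. The count was 48 among features with a mean of at least 10 CPM, 58 with no filter, 46 with own reads and 50 with own reads and edgeR. A minimum log2 fold change of 1 left 17 members for mature against embryonic, 8 at E17, 0 at P1, 2 at P6, 0 at P15 and 0 at P60. With own reads, and with own reads in edgeR, the calls were 17 and 17 at E17, 24 and 26 at P6, 1 and 1 at P28, and 11 and 11 at P60. With only the compared ages they were 10 at P15 and 0 at P60, and edgeR on the recovered reads called 11 at P60. Leaving out 1 library gave 5 to 12 calls at P1, 31 to 52 at P6, 3 to 7 at P15 and 1 to 27 at P60. The beta sum rose 2.823-fold with median-of-ratios scaling. The cause of these shifts was not tested. Own reads turned the sign for 2 isoforms called higher as deposited, Pcdha3 (0.70 to -0.23) and Pcdhgb8 (0.27 to -0.02), neither of them called on own reads. Pcdha3 was itself the subtracted entry in P28 replicates 2 and 3, so its own reads were 0 there by construction. Own reads also turned the alpha change from P6 to P60, a ratio of 0.792 for the shared and 1.21 for the own reads. The gamma change turned too, 0.903 and 1.395, with the P60 libraries split as given above.

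Replicate numbers did not pair the samples: same-numbered libraries of different ages had correlations of -0.129 to 0.167 in their deviations from the age means, 3 of 69 over 0.1, and 7 of 27 libraries correlated best with their own number. With the number as a replicate block, 57 members were higher in the mature retina, and 30 were called at E17, 8 at P1, 53 at P6, 7 at P15, 0 at P28 and 1 at P60. Depth limits Pcdhb1, with at most 6 reads in a library.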
